A study of Mus musculus with 6 samples.

Results

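The 49 genes described here encode the core machinery of macroautophagy and its cargo receptors. They were taken by gene symbol from a fixed list of the pathway's members and read in the order of the steps: initiation (5 genes), nucleation (7), lipid transfer (9), conjugation (16), receptors (8) and fusion (4). Each of the 49 matched 1 row of the deposited table of 55487 genes, and all 49 passed the filter on low counts, with 13405 genes passing in all. Poly(A) RNA was sequenced in bulk from 4T1, a mouse mammary carcinoma cell line derived from a BALB/c tumour. The 3 treated libraries are from cells kept with 10 µM cepharanthine (CEP), a bisbenzylisoquinoline alkaloid from Stephania plants, for 12 h. The 3 control libraries are from cells kept with the same volume of the solvent, dimethyl sulfoxide (DMSO), for the same time. Both groups are of 1 cell line, with no genetic change named in the labels, and nothing in the labels says whether replicates came from separate cultures, so p-values measure the spread between these libraries, which may be technical. The libraries are called CEP1 to CEP3 and DMSO1 to DMSO3 by their replicate numbers, and values for single libraries are given in that order.

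In macroautophagy a double membrane grows around cytoplasm, closes into an autophagosome and fuses with lysosomes, where the content is degraded. A kinase complex starts the process, a lipid kinase complex marks the membrane, lipid carriers feed its growth, a ubiquitin-like conjugation system attaches the ATG8 proteins (LC3 and GABARAP) to it, receptors bring cargo to those proteins, and tethers and SNARE proteins drive fusion. Cepharanthine is a weakly basic, amphiphilic compound, and compounds of that kind are known to collect in lysosomes. In carcinoma cells autophagy is known for supplying nutrients and removing damaged organelles. The data here are transcript levels and contain no measure of autophagic flux.

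Of the 49 genes, 27 rose and 4 fell with CEP, and 18 did not pass (quasi-likelihood test of edgeR, p adjusted by Benjamini and Hochberg over all 13405 genes and under 0.05). Among all genes tested, 38.2% changed, 20.1% higher and 18.2% lower. The list of 49 was chosen with earlier results of these data known, so its comparison with all genes is not independent of the data. The median log2 fold change was 0.23 over the 49 genes and 0.01 over all genes tested. All CEP libraries lay above all DMSO libraries for 29 of the 49, against 25.2% of all genes tested, and below them for 5, against 24.7%. At least 2-fold changes were called for 2 of the 49, Sqstm1 and Tecpr1, and for 2.9% of all genes tested. Rises covered 7 of 8 receptor genes, 6 of 9 lipid transfer genes, 3 of 5 initiation genes, 2 of 4 fusion genes, 3 of 7 nucleation genes and 6 of 16 conjugation genes. The 4 genes that fell were Wdr45b, Atg3, Fundc1 and Stx17. The number that fell was 2 without CEP2 and 2 without DMSO3, while the number that rose was between 21 and 27 with any 1 library left out. The number called over all genes also moved, from 3735 of 13660 without DMSO3 to 6905 of 13650 without CEP1. With all libraries it was 5125 of 13405. Because RNA was taken in bulk, fewer cells of a kind and less RNA per cell cannot be told apart.

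**Figure D1:**
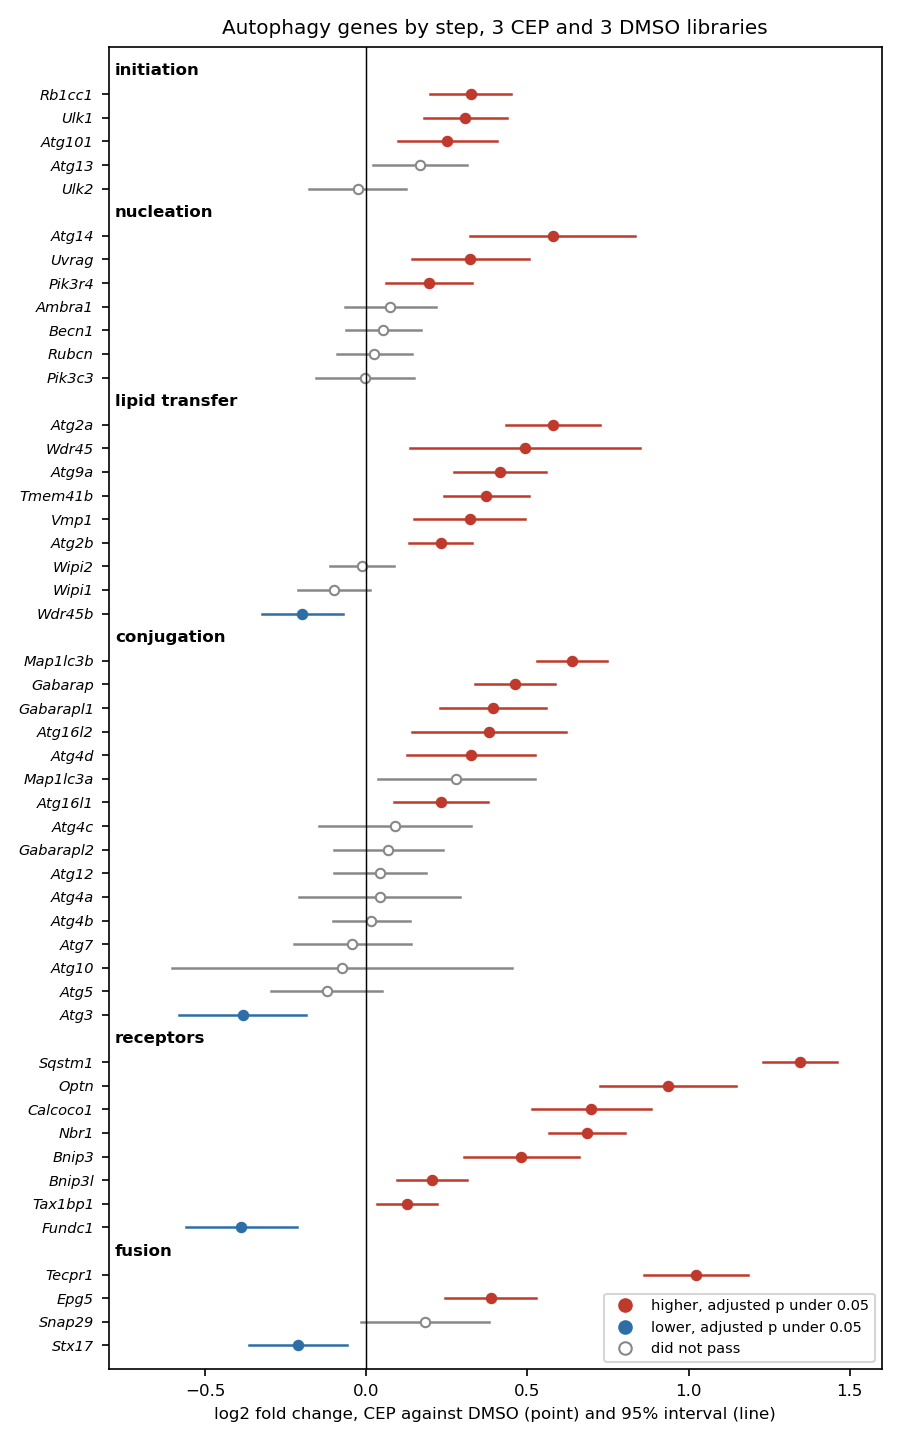
Log2 fold change of each of the 49 genes, CEP against DMSO, with its 95% interval (horizontal axis), grouped by step and ordered within it (vertical axis). Filled points passed the test, red higher and blue lower with CEP. Sqstm1 at 1.35 and Tecpr1 at 1.02 lie furthest right, and 9 of the 16 conjugation genes did not pass the test.

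Counts summed over genes ran from 15299261 to 19655010 per library. CEP1 lay nearer to the controls than CEP2 and CEP3 did, with a first principal component score of 10.1 against 28.5 and 30.4, and with 60.7% of the variance on that component. The epithelial genes Epcam, Cdh1, Krt8 and Krt18 were abundant, and Krt14 stood at 6.45 CPM (counts relative to the library's TMM-scaled total) in DMSO. The summed level of the 5 epithelial markers was between 2710 and 2780 CPM with CEP and between 3140 and 3220 CPM with DMSO alone, with 2 higher, 2 lower and 1 not past the test. The 5 leukocyte markers summed to at most 0.408 CPM with CEP and 0.412 CPM with DMSO alone, and the 3 endothelial markers to at most 0.455 and 0.46 CPM. Lyz2 and Kdr had 0 counts in all 6 libraries. The 4 fibroblast markers summed to between 85.7 and 101 CPM with CEP and between 62.8 and 69.5 CPM with DMSO alone. That sum was nearly all Pdgfra, which rose by 0.52 ± 0.0668 on the log2 scale, while Dcn, Col1a2 and Col1a1 each averaged under 1 CPM in both groups. The part of CEP1 and of these markers in the results was not tested beyond leaving each library out.

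The initiation complex joins the kinase ULK1 to the scaffold FIP200, encoded by Rb1cc1, and to ATG13 and ATG101. Ulk1 stood at 70.1, 74.5 and 73.3 CPM with CEP and at 54.9, 62.0 and 59.2 CPM with DMSO. The groups did not overlap, and Ulk1 rose by 0.31 ± 0.0600 (log2 fold change ± SE, adjusted p = 0.00111). Rb1cc1, at 67.3, 73.1 and 66.8 CPM with CEP and 54.0, 57.0 and 54.4 CPM with DMSO alone, rose by 0.32 ± 0.0588 (adjusted p = 6.57e-04). Atg101 rose by 0.25 ± 0.0718 (adjusted p = 0.0129), a call that ended without CEP2, DMSO1 or DMSO2 (edgeR adjusted p = 0.0635, 0.0549 and 0.0502, alternatives 0.00292 to 0.0635). Here and below, the range after the word alternatives is that of the gene's adjusted p over the other processing settings tried. Atg13 lay higher in all CEP libraries (38.2 to 39.0 CPM) than in all DMSO libraries (33.0 to 36.5 CPM) but did not pass at 0.17 ± 0.0681 (adjusted p = 0.068).

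Ulk2, the paralog of Ulk1, did not pass. Its level was 42.3 to 48.7 CPM with CEP and 44.7 to 48.7 CPM with DMSO alone, with a log2 fold change of -0.03 and a 95% interval of -0.18 to 0.12. Per kilobase of transcript, Ulk1 made up 72.1 ± 2.06% of the summed ULK level in CEP and 67.1 ± 0.930% in DMSO (SD, n = 3 each). Its share was 69.8, 73.8 and 72.5% with CEP and 66.2, 67.1 and 68.0% with DMSO, with no overlap. With the exon lengths of the deposited table in place of transcript lengths, its mean share was 63.9% in CEP and 58.3% in DMSO.

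Nucleation depends on a lipid kinase complex of VPS34 (Pik3c3), its regulatory subunit VPS15 (Pik3r4) and Beclin 1 (Becn1), joined by ATG14 in the form that makes autophagosomes or by UVRAG in the form that acts on endosomes. Pik3c3 and Becn1 overlapped between groups and did not pass. Pik3c3 stood at 27.4, 28.7 and 28.5 CPM with CEP and 28.2, 28.4 and 28.2 CPM with DMSO alone, a log2 fold change of -0.0043 with a 95% interval of -0.16 to 0.15. Becn1 stood at 76.3, 77.4 and 79.2 CPM with CEP and 75.6, 71.1 and 77.6 CPM with DMSO alone, with an interval of -0.06 to 0.17. Pik3r4 rose by 0.19 ± 0.0624 (adjusted p = 0.0237). That call ended without CEP3, DMSO2 or DMSO3 (edgeR adjusted p = 0.117, 0.0911 and 0.0897), with DESeq2 (0.083) and with upper-quartile scaling (0.052, alternatives 0.0139 to 0.117).

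The genes of both alternative partners rose. Atg14 had 12.7, 14.8 and 13.9 CPM with CEP and 9.84, 7.95 and 9.77 CPM with DMSO. All CEP values lay above all DMSO values, and Atg14 rose by 0.58 ± 0.120 (adjusted p = 0.00171), the largest fold change of the nucleation genes. Uvrag rose by 0.32 ± 0.0854 (adjusted p = 0.00831), from 27.4 ± 2.38 to 34.3 ± 2.75 CPM (SD, n = 3 each), but did not pass without DMSO2 (edgeR adjusted p = 0.0566, alternatives 0.00149 to 0.0566). Without that library 1 nucleation gene rose rather than 3. Over all genes, 3979 of 13785 were called in that fit, against 5125 of 13405 with all libraries. Rubcn, which encodes Rubicon, an inhibitor of the UVRAG form, and Ambra1, a scaffold of the complex, overlapped between groups and did not pass at 0.03 ± 0.0542 and 0.07 ± 0.0660.

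In the lipid transfer step, ATG2A and ATG2B carry lipids from the endoplasmic reticulum to the growing membrane, and ATG9A, VMP1 and TMEM41B move lipids between the leaflets of membranes. The genes of all 5 of these proteins rose. Atg2a stood at 79.1, 90.4 and 90.4 CPM with CEP and at 62.3, 57.1 and 54.5 CPM with DMSO alone. The lowest CEP library was well above the highest DMSO library, and Atg2a rose by 0.58 ± 0.0680 (edgeR adjusted p = 1.81e-05). Atg2b, at 139.7, 148.0 and 142.6 CPM with CEP and 122.5, 122.4 and 121.7 CPM with DMSO alone, rose by 0.23 ± 0.0455 (adjusted p = 0.00119). Per kilobase, Atg2a made up 41.7 ± 1.39% of the ATG2 level in CEP and 36.0 ± 1.497% in DMSO, with no overlap between the libraries, and Atg2b was the larger part in each of the 6 libraries.

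Atg9a encodes the only multispanning membrane protein of the core ATG set and had 39.0, 39.7 and 39.4 CPM with CEP and 30.5, 29.2 and 29.0 CPM with DMSO alone. The spread within each group was under 1 CPM (SD 0.345 and 0.797), and Atg9a rose by 0.42 ± 0.0664 (adjusted p = 2.52e-04). Of its exon bases 31.8% overlap Gm29253 on the same strand, which had 0 CPM with DMSO alone, so reads there may have been dropped. Tmem41b rose by 0.37 ± 0.0615 (adjusted p = 3.22e-04). Vmp1 stood at 109.4, 132.7 and 135.8 CPM with CEP and 97.4, 108.7 and 96.6 CPM with DMSO alone. CEP1 was close to the highest DMSO library, and Vmp1 rose by 0.32 ± 0.0789 (adjusted p = 0.00752) and by 0.40 without that library (adjusted p = 6.66e-09). Without CEP1 more genes passed in all, 6905 of 13650 against 5125 of 13405 with all libraries.

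WIPI proteins read the lipid mark laid down by VPS34. Their 4 genes did not move together. Wipi2, whose product recruits ATG16L1, stood at 172.9 ± 4.62 CPM with CEP and 174.5 ± 5.74 CPM with DMSO alone, with a 95% interval of the log2 fold change from -0.11 to 0.09. Wipi1 lay lower in all CEP libraries (80.2 to 83.7 CPM) than in all DMSO libraries (85.2 to 91.5 CPM) and did not pass at -0.10 ± 0.0520 (adjusted p = 0.14). Wdr45b, which encodes WIPI3, fell by 0.20 on the log2 scale (SE 0.0587, adjusted p = 0.0151), from 94.1, 95.9 and 99.9 CPM with DMSO alone to 91.2, 79.9 and 81.2 CPM with CEP. The fall did not pass without CEP2, CEP3 or DMSO3 (edgeR adjusted p = 0.0777, 0.0613 and 0.0815, alternatives 9.58e-06 to 0.0815). Wdr45b was the only lipid transfer gene that fell.

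Wdr45, which encodes WIPI4, was the scarcest of the lipid transfer genes in CPM. Its level was 7.27, 9.10 and 9.85 CPM with CEP and 6.95, 6.89 and 4.86 CPM with DMSO alone. The lowest CEP and the highest DMSO library nearly touched, and the rise of 0.49 ± 0.167 (adjusted p = 0.0303) ended without CEP2, CEP3 or DMSO3 (edgeR adjusted p = 0.0887, 0.127 and 0.166) and with DESeq2 (0.0591, alternatives 0.00119 to 0.166). The deposited table gives Wdr45 an exon length of 411 bases, against 1609 for its longest coding transcript in GENCODE M21, so its level per length is uncertain. Of its exon bases 24.7% overlap Gm45208 on the same strand, which had 0 CPM with DMSO alone, so reads there may have been dropped.

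Conjugation uses the E1-like enzyme ATG7, the E2-like enzymes ATG3 and ATG10, the ATG12, ATG5 and ATG16L1 complex that places ATG8 proteins on membranes, and the ATG4 proteases that mature and remove them. Atg7, Atg10, Atg12, Atg4a, Atg4b and Atg4c did not pass. Atg7 overlapped between groups at 20.2 to 23.7 CPM with CEP and 22.3 to 23.0 CPM with DMSO alone, with a 95% interval of the log2 fold change from -0.22 to 0.14. Atg12 had an interval of -0.10 to 0.19 and Atg4b, the main ATG4 protease gene by level per kilobase (55.0 ± 0.993% of the ATG4 sum in CEP and 56.9 ± 1.19% in DMSO), one of -0.10 to 0.14. Atg10 was the least abundant of the 49 genes at 2.22 ± 0.50 CPM with DMSO alone, with 30 to 42 counts per library, and its interval of -0.60 to 0.45 is wide. Atg4a and Atg4c were at 0.04 ± 0.117 and 0.09 ± 0.110.

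Atg3 was the conjugation gene that fell. It had 27.1, 23.6 and 21.9 CPM with CEP and 34.5, 31.3 and 29.3 CPM with DMSO. All CEP values lay below all DMSO values, and Atg3 fell by 0.38 on the log2 scale (SE 0.0921, adjusted p = 0.00455). Atg5 overlapped between groups and did not pass at -0.12 ± 0.0799 (adjusted p = 0.239), but it did without CEP1 (-0.21, edgeR adjusted p = 0.032, alternatives 0.032 to 0.513), and 2 conjugation genes then fell. Over all genes, 6905 of 13650 passed without CEP1, against 5125 of 13405 with all libraries.

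Atg16l1, whose product directs the ATG12 and ATG5 pair to membranes, rose by 0.23 ± 0.0681 (adjusted p = 0.015), and its paralog Atg16l2 by 0.38 ± 0.111 (adjusted p = 0.0144). Neither call held throughout. Atg16l1 did not pass without CEP2, CEP3, DMSO1 or DMSO2 (edgeR adjusted p = 0.0782, 0.0589, 0.064 and 0.0605, alternatives 2.00e-04 to 0.0782). Atg16l2 did not pass without CEP2, CEP3 or DMSO2 (edgeR adjusted p = 0.0508, 0.0808 and 0.0712, alternatives 9.63e-05 to 0.0808). Atg4d rose by 0.32 ± 0.0927 (adjusted p = 0.0129) but not past the test without CEP2, CEP3 or DMSO3 (edgeR adjusted p = 0.0577, 0.0507 and 0.0655, alternatives 0.00131 to 0.0655). Of its exon bases 19.3% overlap Kri1 on the opposite strand, which had 28.3 CPM with DMSO alone against 15.6 CPM for Atg4d and did not pass (0.13 ± 0.0806). Without CEP3, 3 conjugation genes rose rather than 6. Over all genes, 3872 of 13547 were called in that fit, against 5125 of 13405 with all libraries.

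The ATG8 proteins are the ubiquitin-like modifiers that coat the autophagosome, and 3 of their 5 genes rose. Map1lc3b, which encodes LC3B, had 135.5, 146.7 and 144.0 CPM with CEP and 92.9, 93.2 and 87.8 CPM with DMSO alone. The groups were far apart, and Map1lc3b rose by 0.64 ± 0.0507 (edgeR adjusted p = 4.20e-07). Gabarap had 149.9, 135.7 and 131.6 CPM with CEP and 95.7, 104.1 and 103.3 CPM with DMSO alone. CEP1 was here the highest library, and Gabarap rose by 0.46 ± 0.0576 (adjusted p = 3.17e-05). Gabarapl1, at 41.2, 49.2 and 44.0 CPM with CEP and 32.4, 35.3 and 34.4 CPM with DMSO alone, rose by 0.39 ± 0.0767 (adjusted p = 0.00111).

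Gabarapl2, which encodes GATE-16, overlapped between groups at 32.6 to 38.5 CPM with CEP and 33.2 to 36.6 CPM with DMSO alone, with a 95% interval of -0.10 to 0.24. Map1lc3a (LC3A) was higher in all CEP libraries (11.44 to 14.4 CPM) than in all DMSO libraries (10.36 to 11.03 CPM) and did not pass at 0.28 ± 0.114 (adjusted p = 0.0657), except without CEP2 (0.36, edgeR adjusted p = 0.04, alternatives 0.04 to 0.258). Summed over the 5 genes, the level per kilobase of transcript was 216.2, 216.0 and 212.2 in CEP and 155.0, 161.6 and 158.6 in DMSO, in CPM per kilobase. Gabarap was the largest part of this sum in each library, at 47.9 ± 2.96% in CEP and 47.2 ± 1.33% in DMSO. The share of Map1lc3b was 25.1 ± 1.15% in CEP and 21.9 ± 0.869% in DMSO, that of Gabarapl2 10.1 ± 0.964% and 13.0 ± 0.931%, and neither overlapped between the groups. With the exon lengths of the deposited table in place of transcript lengths, the Map1lc3b share was 25.9% in CEP and 22.6% in DMSO.

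**Figure D2:**
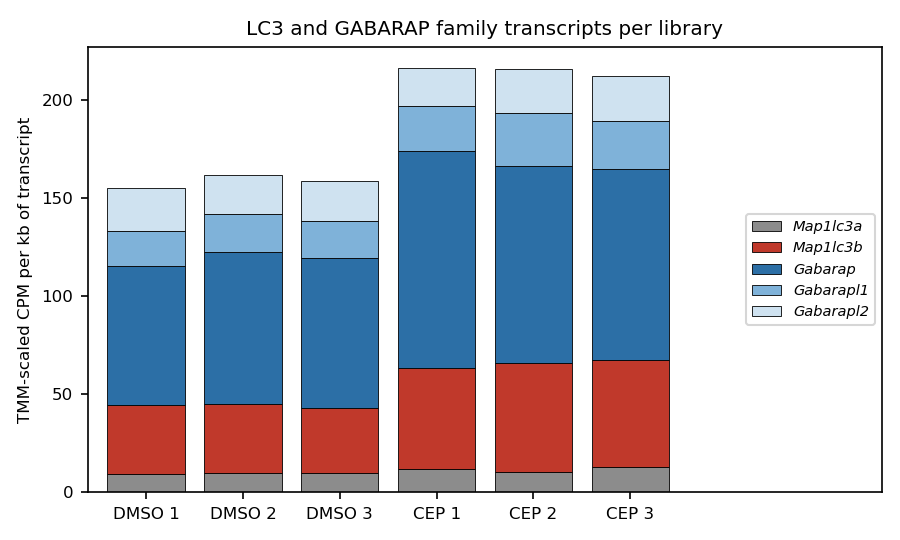
Stacked TMM-scaled CPM per kilobase of transcript (vertical axis) of the 5 LC3 and GABARAP genes in each of the 6 libraries (horizontal axis). The 3 CEP bars reach 212.2 to 216.2 and the 3 DMSO bars 155.0 to 161.6, and Gabarap is the largest segment in each bar.

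The cargo receptors bind cargo, often through ubiquitin, and ATG8 proteins through a short interaction motif. Of their 8 genes 7 rose. Sqstm1, which encodes p62, a receptor that is itself degraded with its cargo, had 1156, 1224 and 1266 CPM with CEP and 454.9, 493.4 and 486.4 CPM with DMSO. The lowest CEP value was far above the highest DMSO value, and Sqstm1 rose 2.54-fold (log2 fold change 1.35 ± 0.0535, edgeR adjusted p = 5.97e-10). In the deposited annotation Sqstm1 (ENSMUSG00000015837) is on the minus strand at chr11:50199366-50210827 of GRCm38.p6. Per kilobase of transcript it was also the most abundant of the 49 genes in DMSO, at 234.8 CPM per kilobase (178.9 with the deposited exon length), followed by Gabarap at 74.8. Of its exon bases 17.3% overlap Mrnip on the opposite strand, which had 5.74 CPM with DMSO alone.

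Nbr1, which encodes a receptor related in domains to p62, had 267.3, 272.7 and 297.7 CPM with CEP and 166.2, 184.2 and 170.7 CPM with DMSO alone. The groups were well separated, and Nbr1 rose by 0.69 ± 0.0551 (adjusted p = 4.74e-07). Optn encodes optineurin, a receptor for damaged mitochondria and bacteria, and had 34.3, 42.2 and 42.4 CPM with CEP and 19.9, 23.2 and 19.1 CPM with DMSO alone. CEP1 was the lowest CEP library but lay above all DMSO libraries, and Optn rose by 0.94 ± 0.0987 (adjusted p = 7.37e-06) and by 1.02 without that library. Calcoco1, which encodes a receptor for parts of the endoplasmic reticulum and Golgi, had 50.02, 60.3 and 60.1 CPM with CEP and 31.5, 37.6 and 35.9 CPM with DMSO alone. It rose by 0.70 ± 0.0864 (adjusted p = 3.50e-05), again with CEP1 as the lowest CEP library. Tax1bp1, which encodes a ubiquitin-binding receptor, stood at 153.8, 152.3 and 154.8 CPM with CEP and 139.9, 141.7 and 141.1 CPM with DMSO alone, a rise of 0.12 ± 0.0433 (adjusted p = 0.0338). That small difference did not pass without CEP2, CEP3, DMSO1, DMSO2 or DMSO3 (edgeR adjusted p = 0.0799, 0.0849, 0.0977, 0.104 and 0.117), with DESeq2 (0.131), with upper-quartile scaling (0.086) or with no low-count filter (0.151, alternatives 0.0231 to 0.151).

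BNIP3, NIX (Bnip3l) and FUNDC1 sit in the outer mitochondrial membrane and mark mitochondria for removal. Their genes differed in direction. Bnip3 had 46.3, 39.7 and 45.5 CPM with CEP and 29.1, 34.7 and 30.7 CPM with DMSO alone, with no overlap, and rose by 0.48 ± 0.0829 (adjusted p = 4.45e-04). Bnip3l had 162.9, 166.1 and 156.5 CPM with CEP and 135.7, 149.1 and 136.8 CPM with DMSO alone, and rose by 0.20 ± 0.0505 (adjusted p = 0.00551). Fundc1 had 19.7, 19.7 and 19.7 CPM with CEP against 27.4, 25.0 and 25.0 CPM with DMSO alone. Every CEP library was below every DMSO library, and Fundc1 fell by 0.39 on the log2 scale (SE 0.0801, adjusted p = 0.00167). Per kilobase, Bnip3 made up 33.3 ± 2.34% of the summed Bnip3 and Bnip3l level in CEP and 29.2 ± 0.838% in DMSO.

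**Figure D3:**
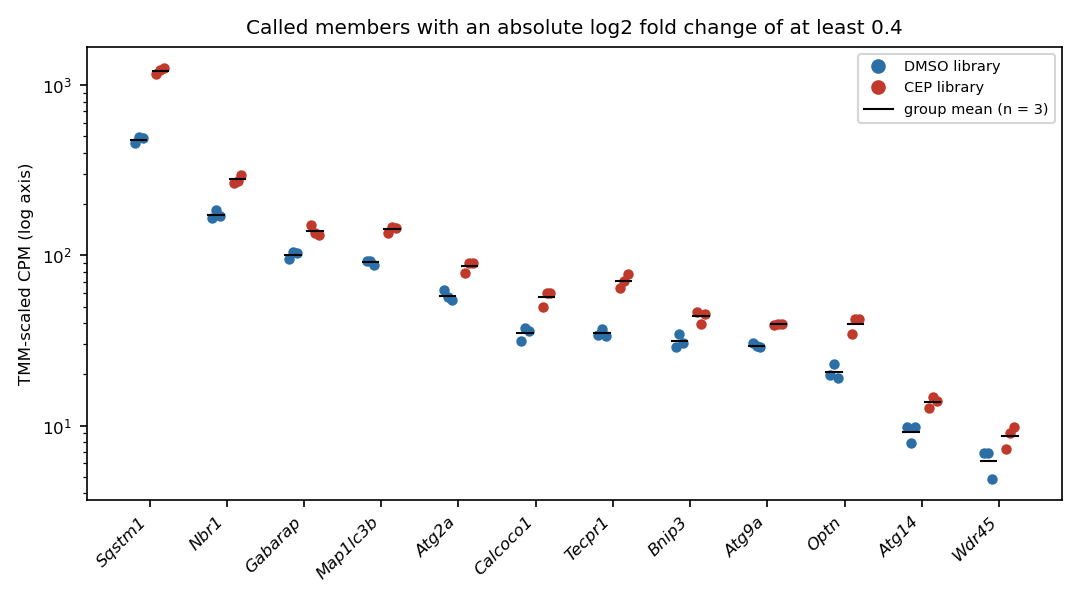
TMM-scaled CPM on a log axis (vertical) in each library for the 12 genes that passed the test with an absolute log2 fold change of at least 0.4 (horizontal axis, ordered by DMSO level). Blue points are DMSO libraries, red points CEP libraries and black lines group means. All 12 rose, from Wdr45 at 6.23 CPM with DMSO alone to Sqstm1 at 478.2 CPM.

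Fusion with lysosomes needs tethers and SNARE proteins. Tecpr1, whose product binds the ATG12 and ATG5 conjugate and lysosomal membranes, had 64.2, 70.4 and 77.7 CPM with CEP and 34.0, 37.0 and 33.6 CPM with DMSO alone. The groups were far apart, and Tecpr1 rose 2.03-fold (log2 fold change 1.02 ± 0.0755, edgeR adjusted p = 2.10e-07). It lies on the minus strand at chr5:144194442-144223615 of GRCm38.p6. Epg5, which encodes a tether that works with RAB7, rose by 0.39 ± 0.0662 (adjusted p = 4.32e-04), from 48.9, 51.7 and 49.8 CPM with DMSO alone to 61.7, 63.1 and 71.5 CPM with CEP. Neither gene of the SNARE proteins rose past the test. Stx17, the autophagosomal syntaxin, stood at 28.0, 28.2 and 30.0 CPM with CEP and 34.0, 32.0 and 33.6 CPM with DMSO alone, and fell by 0.21 on the log2 scale (SE 0.0708, adjusted p = 0.0285). The fall did not pass without CEP2, DMSO1 or DMSO3 (edgeR adjusted p = 0.0886, 0.0808 and 0.0961) or with DESeq2 (0.0573, alternatives 0.015 to 0.0961). Stx17 was the only fusion gene that fell. Snap29, the partner of STX17, overlapped between groups and did not pass at 0.18 ± 0.0926 (adjusted p = 0.136).

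The difference from the DMSO mean, averaged over the genes of a step, was compared between libraries as a description. For the receptor genes it was 0.46, 0.51 and 0.55 in CEP1, CEP2 and CEP3, and between -0.05 and 0.07 in the DMSO libraries, on the log2 scale of CPM plus 0.5. The same mean was 0.09, 0.16 and 0.17 for the conjugation genes and 0.32, 0.31 and 0.38 for the fusion genes in CEP1, CEP2 and CEP3. In each step all CEP means lay above all DMSO means. No such mean was taken over all genes, and a few genes can move these means. Medians in CEP1, CEP2 and CEP3 were 0.02, 0.08 and 0.20 for conjugation and 0.06, 0.11 and 0.09 for nucleation. They were 0.53, 0.49 and 0.65 for receptors and 0.33, 0.23 and 0.27 for fusion. For initiation they were 0.19, 0.32 and 0.24, and for lipid transfer 0.19, 0.37 and 0.41. CEP1 was the lowest of the 3 CEP libraries for 28 of the 49 genes and the highest for 10.

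**Figure D4:**
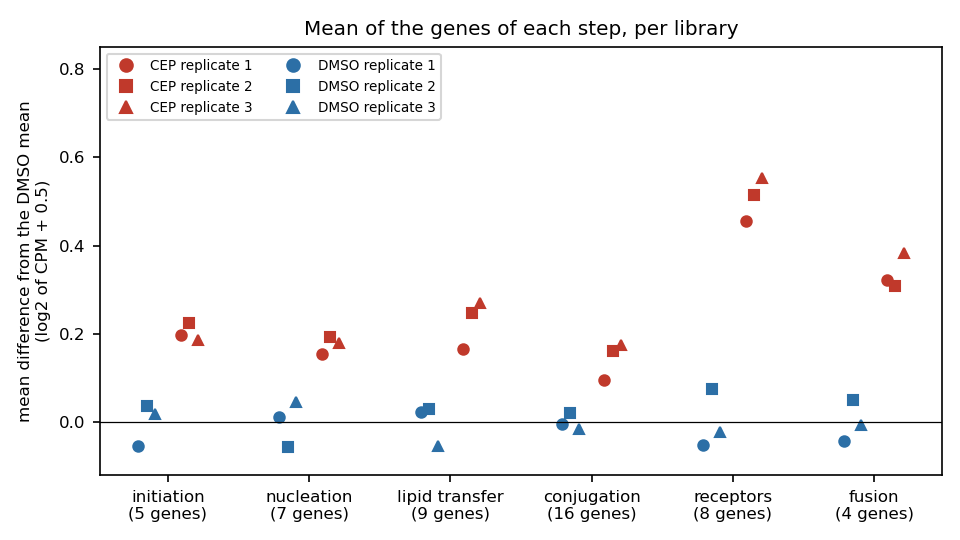
Mean difference from the DMSO mean over the genes of each step, on the log2 scale of CPM plus 0.5 (vertical axis), for each library (red CEP, blue DMSO, marker shape by replicate) and step (horizontal axis). Receptor genes reach 0.46 to 0.55 in CEP, and conjugation genes 0.09 to 0.17.

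Promoter sequence was searched because the transcription factors that act on autophagy genes are known to bind short motifs near start sites. The RefSeq table of GRCm38.p6 holds windows of 250 bases before to 50 after each start, and 40 of the 49 genes matched, with 47 windows. Both strands were searched for the E-box CACGTG, the longer E-box TCACGTG preferred by TFEB and TFE3 (which contains the first), TGATGCA, a core of the element bound by ATF4 with C/EBP factors, and the FOXO motif GTAAACA. The E-box was in 12.8% of the windows of the autophagy genes and 7.15% of all 32851 windows, the longer E-box in 8.51% and 3.77%, TGATGCA in 4.26% and 3.15%, and GTAAACA in 0% and 3.65%. These are descriptions of letters and not of binding. All windows include those of genes that were not tested here, so the shares are of unlike sets of genes. The E-box was held by 6 genes, of which Atg14 and Bnip3 rose, Atg3 fell and Atg5, Atg7 and Rubcn did not pass. The longer E-box was in 4 of the 47 windows. Of its 4 genes, Atg14 rose, Atg3 fell and Atg7 and Rubcn did not pass. TGATGCA was held by Optn and Vmp1, which both rose. The windows of Sqstm1, Nbr1, Map1lc3b and Tecpr1, the 4 genes with the smallest adjusted p, held none of these letters. Stretches around the matches are shown for the called genes with a match upstream of the RefSeq start and outside their own exons (that of Atg14 touches its start and is not shown), on the gene's strand and with the motif in capitals. Optn is from chr2:5064248-5064367 (minus strand), Bnip3 from chr7:138909549-138909674 (minus), Atg3 from chr16:45158674-45158784 (plus) and Vmp1 from chr11:86683591-86683717 (minus). The Vmp1 stretch lies before a RefSeq start that is inside the deposited extent of the gene (chr11:86583865-86683836), so it is downstream of the 5′ end given there. The windows of Atg14, Atg7 and Rubcn that hold the E-box also lie wholly inside the deposited extents of their genes. Their matches are thus downstream of the 5′ ends given there as well. In Atg3, which fell, the second capital stretch reads as the longer E-box on both strands.
Optn: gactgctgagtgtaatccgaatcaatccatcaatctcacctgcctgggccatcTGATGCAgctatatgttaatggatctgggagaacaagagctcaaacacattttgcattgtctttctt
Bnip3: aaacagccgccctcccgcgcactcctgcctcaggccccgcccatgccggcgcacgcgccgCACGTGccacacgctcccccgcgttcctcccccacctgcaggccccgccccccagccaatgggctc
Atg3: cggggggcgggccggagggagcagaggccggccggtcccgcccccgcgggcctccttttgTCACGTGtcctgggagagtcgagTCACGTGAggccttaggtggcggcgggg
Vmp1: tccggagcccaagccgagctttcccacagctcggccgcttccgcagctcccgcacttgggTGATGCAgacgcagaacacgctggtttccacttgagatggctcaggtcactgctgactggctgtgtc

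A second list of 62 genes with known roles around this core was read beside it. It was also chosen with earlier results of these data known. Of the 62 genes, 56 passed the low-count filter. Of these, 28 rose, 10 fell and 18 did not pass, with a median log2 fold change of 0.18, against 20.1% higher and 18.2% lower among all genes tested. The number that fell was 6 without CEP3 and 6 without DMSO3. Over all genes, 3872 of 13547 were called without CEP3 and 3735 of 13660 without DMSO3. Among regulators of initiation 5 of 14 rose and 3 fell. Smcr8 and C9orf72, whose products form a complex that acts on the ULK1 complex and on lysosomes, rose by 0.72 ± 0.0508 and 0.74 ± 0.0942, while Wdr41, of the third protein of that complex, fell by 0.48 on the log2 scale (SE 0.112). Trp53inp1, a p53-induced gene whose product binds ATG8 proteins, rose by 1.65 ± 0.141, from 9.27 ± 1.45 CPM with DMSO alone to 29.2 ± 4.87 CPM with CEP. Bcl2, which encodes an inhibitor of Beclin 1, fell by 0.41 (SE 0.0690) and Ei24 by 0.24 (SE 0.0524).

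Among 12 genes of the fusion machinery 6 rose. The SNARE gene Ykt6 did not pass at -0.08 ± 0.0482 (edgeR adjusted p = 0.225). Of the 16 alternatives it passed as lower in 1, without CEP1 (-0.11, edgeR adjusted p = 0.0403, alternatives 0.0403 to 0.422). In that fit 6905 of all 13650 genes tested passed. Plekhm2 and Plekhm1, of adaptors that link lysosomes to motors and to the tethering complex HOPS, rose by 1.195 ± 0.0835 and 0.71 ± 0.0718, and the HOPS gene Vps11 by 0.39 ± 0.0516. Among 9 transcription factor genes linked to autophagy 7 rose, and 4 without DMSO2. Without DMSO2, 3979 of all 13785 genes tested were called, against 5125 of 13405 with all libraries. Ddit3 rose by 1.95 ± 0.135, Foxo3 by 0.68 ± 0.0600 and Atf4 by 0.45 ± 0.0716. Tfeb, Mitf and Tfe3, of a family that regulates lysosomal and autophagy genes, were looked up after the values were seen. Tfeb (9.62 ± 0.315 CPM with DMSO alone, 11.2 ± 0.329 CPM with CEP) and Mitf did not pass, at 0.22 ± 0.108 and 0.17 ± 0.110. Tfe3 rose by 0.21 ± 0.0580 (adjusted p = 0.0111) but not past the test without DMSO3 (edgeR adjusted p = 0.0632, alternatives 0.00576 to 0.0632). Among 21 further receptor and kinase genes 10 rose and 7 fell, and the number that fell was 4 without CEP2 or DMSO2 and 3 without CEP3 or DMSO3. The number called over all genes was 3858 of 13645 without CEP2 and 3979 of 13785 without DMSO2. It was 3872 of 13547 without CEP3, 3735 of 13660 without DMSO3 and 5125 of 13405 with all libraries. With all libraries, 20.1% of all genes tested were higher and 18.2% lower.

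**Figure D5:**
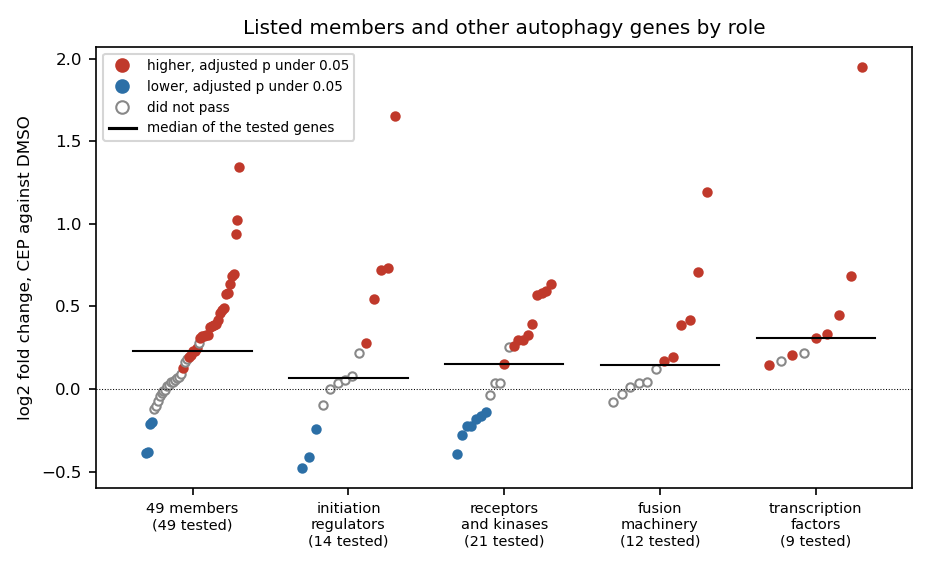
Log2 fold change, CEP against DMSO (vertical axis), of each tested gene among the 49 genes of the core and the 4 role groups of the second list (horizontal axis, genes ordered within each group). Filled red and blue points passed the test, open points did not, and black lines are medians. The transcription factor group has no gene below 0, and the receptor and kinase group has 10 higher and 7 lower.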

How the data were processed

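Bulk RNA sequencing of 3 CEP and 3 DMSO libraries was used, grouped by the samples' titles. Although the labels call the source single-cell, their protocol is one for RNA of whole samples. Per the labels' protocols, poly(A) RNA was made into libraries with a stranded dUTP kit. The deposited table holds whole-number counts per Ensembl gene, not normalised, and gives positions that, per the file headers, are of GRCm38.p6, and exon lengths that equal 1 annotated transcript for each of the 49 genes. The submitters' processing notes name HISAT2, HISAT, HTSeq, DESeq2 and GRCm38. The strand setting of counting is not given in the sources used here, so reads of overlapping genes on opposite strands could be mixed or dropped.

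Genes were filtered (edgeR filterByExpr, minimum count 10, minimum total 15), TMM-scaled and compared by edgeR's quasi-likelihood F test with group as the only term. After the fits, the test was also run on counts simulated from the main fit. Such counts cannot show whether the model suits these libraries. Each SE was the size of the log2 fold change divided by the root of F. Levels per kilobase used the GENCODE M21 transcript with the longest coding part. Intervals (95%) and SE cover the spread between libraries. All 49 genes could be named, the 12 called with an absolute log2 fold change of at least 0.4 with each library's value. From the second list up to 3 genes per role and direction were named by adjusted p, and the rest in the closing section, with Tfeb, Tfe3, Mitf and Ykt6, were named after their values were seen. The members and lists were chosen with earlier results of these data known. Replicate pairs differed by more than sampling noise (chi-square per degree of freedom 1.81 to 10.9). Alternatives were RLE, upper-quartile and no scaling, DESeq2, limma-voom, no low-count filter, 1 CPM in 3 libraries, protein-coding genes only, a replicate block, each library left out, and a threshold of 0.01. The tools were edgeR 4.0.16, DESeq2 1.42.0 and limma 3.58.1, run in R 4.3.3, and Python 3.11.15. Protein sequences, planned for the LC3 and GABARAP genes, were not used here.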

Additional observations from a re-analysis of the deposited data

How the results depend on the processing

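Of the 31 called genes among the 49, 21 kept their direction and stayed past the threshold in all 16 alternatives, and no called gene changed direction. The other 10 lost the call in at least 1 alternative, and of the 18 that did not pass, 2 passed in at least 1. With 1 library left out, the number that rose ran from 21 to 27 and the number that fell from 2 to 5. In the second list these numbers ran from 23 to 27 and from 6 to 11. Among all genes tested, the number called ran from 3735 of 13660 without DMSO3 to 6905 of 13650 without CEP1. At an adjusted p under 0.01, 20 of the 49 rose and 2 fell, and in the second list 21 rose and 5 fell. Among all genes tested, 3307 of 13405 passed at that threshold, against 5125 at 0.05. In the second list 12 of 38 called genes lost the call in at least 1 alternative. With the replicate number as a block 26 of the 49 rose and 4 fell, and 4896 of all 13405 genes tested were called. Same-numbered libraries did not deviate together (correlations of -0.0462, 0.0245 and -0.0354 across genes), and not every library correlated best with its own number. Whether same-numbered libraries were prepared together is not stated, and these correlations cannot settle it. Tax1bp1 did not pass with the replicate block (edgeR adjusted p = 0.0664, alternatives 0.0231 to 0.151). Depth limits Atg10 most, at 30 to 42 counts per library.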

Other observations

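Receptors for the endoplasmic reticulum and for mitochondria in the second list were grouped after their values were seen, and each value is the gene's own. Of the genes of endoplasmic reticulum receptors, Retreg1 rose by 0.63 ± 0.0577 on the log2 scale, from 47.0 ± 1.01 to 73.0 ± 3.02 CPM (SD, n = 3 each), Tex264 by 0.59 ± 0.0587 and Retreg2 by 0.58 ± 0.0592. Sec62 rose by 0.29 ± 0.0526. Retreg3 overlapped between groups (0.03 ± 0.0627), and Ccpg1 averaged under 0.1 CPM in both groups. Rtn3 overlapped between groups and rose by 0.15 ± 0.0540, but not past the test in 8 alternatives, 4 of them with 1 library left out (CEP2, CEP3, DMSO2 or DMSO3, edgeR adjusted p = 0.144, 0.126, 0.0938 and 0.195, alternatives 0.000127 to 0.195). Atl3 fell by 0.14 (SE 0.0439), a call that ended without CEP2, CEP3, DMSO2 or DMSO3 (edgeR adjusted p = 0.0635, 0.0612, 0.0812 and 0.092, alternatives 7.63e-04 to 0.092).

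Of the genes tied to mitochondrial removal, Nipsnap2 fell by 0.39 (SE 0.0629), from 74.0 ± 2.16 to 56.2 ± 4.27 CPM, and Nipsnap1 by 0.28 (SE 0.0565). Phb2 and Fkbp8 fell by 0.16 (SE 0.0503) and 0.18 (SE 0.0527). Both calls ended without CEP2, CEP3, DMSO2 or DMSO3 (edgeR adjusted p = 0.0679, 0.0732, 0.0567 and 0.124 for Phb2, alternatives 1.06e-04 to 0.124, and 0.0594, 0.0603, 0.0688 and 0.087 for Fkbp8, alternatives 1.72e-05 to 0.087). Bcl2l13 did not pass at -0.04 ± 0.0546, and Pink1, the kinase gene of the ubiquitin-dependent route, did not pass at 0.25 ± 0.113 (adjusted p = 0.0924) but did without CEP1 or DMSO3 (edgeR adjusted p = 0.0211 and 0.041, alternatives 0.0211 to 0.354). Ncoa4, the ferritin receptor gene, fell by 0.23 (SE 0.0629) but not past the test without CEP3 (edgeR adjusted p = 0.0609, alternatives 7.41e-05 to 0.0609).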
